A study of Mus musculus with 8 samples.

Results

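Sdcbp2, Sema4f, Ramp3, Aatk, Tmem154, Eps8, Sdc1, Slco2b1, Zfp704 and Epb4.1l1 were selected on their measured array signal, which differed strongly between bone marrow-derived macrophages labelled wild type (WT) and iNOS-/-, either after M1 activation or in both states. They are 10 of the 18138 gene symbols on the array and are read by 19 of its 25697 probes. The selection set no numerical threshold. It used the measured levels of all 4 groups between genotypes, so every genotype difference in these genes is given as a description without a p-value. The tests of stimulation below reuse those arrays, so their p-values in these genes are not independent of the selection. In the M1 cells labelled iNOS-/-, 3 genes (Sdcbp2, Sema4f and Ramp3) were higher than in WT M1 cells and the other 7 were lower. Among the 7 genes detected in both M1 groups the log2 differences ran from -4.94 to 4.91. Slco2b1, Zfp704 and Epb4.1l1 were undetected in iNOS-/- M1 cells. With the main scaling they were lower there by at least 23.5-fold, at least 10.5-fold and at least 8.50-fold. Other treatments of low signal, given below, made these differences smaller than that.

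Marrow of female mice, labelled C57bl/6J in both genotypes and 8 weeks old, was cultured with GM-CSF at 10 ng ml-1 for 7 days, so that every group carries the growth factor. M1 cells then received LPS at 200 ng ml-1 plus IFN-γ at 10 ng ml-1 for 6 h, and unstimulated cells received neither. Crossing genotype with treatment gave 4 groups of 2 arrays, 8 arrays in all. The mutant was a Nos2-targeted line from a commercial breeder, and its stock name in the paper gives the B6 background together with another strain. In this line the gene is disrupted in every cell and not in macrophages alone. The labels do not state whether separate mice or cultures stand behind replicate arrays, so the p-values measure the spread between these arrays only. The comparison of genotypes asks which transcripts depend on inducible nitric oxide synthase (iNOS), the enzyme that makes nitric oxide in activated macrophages.

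LPS acts through Toll-like receptor 4 and IFN-γ through its own receptor, and together they drive macrophages into the classically activated, inflammatory M1 state, in which Nos2 is among the strongly induced genes. The 10 genes do not form a pathway. Sdc1 encodes syndecan-1, a cell-surface proteoglycan that carries heparan sulphate, and Sdcbp2 encodes syntenin-2, a PDZ-domain adaptor related to the protein that binds syndecan tails. Sema4f is a membrane-bound semaphorin, and Ramp3 is an accessory subunit that turns the calcitonin receptor-like receptor into an adrenomedullin receptor. Eps8 caps and bundles actin filaments, Epb4.1l1 (protein 4.1N) ties membrane proteins to the cytoskeleton, and Slco2b1 carries organic anions into cells. Aatk is a membrane-anchored kinase first described in dying myeloid cells, Zfp704 is a zinc finger protein, and Tmem154 is a membrane protein of little known function.

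All levels are log2 of an array intensity scaled between arrays, with intensities below 1 set to 1, so that 0 is the floor of the scale. A probe was detected on an array when its detection p-value was under 0.05. Between 46.05 and 49.32% of all probes were detected on an array, mean intensities ran from 155.4 to 224.5, and the median probe differed between the 2 arrays of a group by 0.161 to 0.187. Emr1, Csf1r, Cd68 and Cd14, which mark macrophages, were detected on all 8 arrays. Nos2 did not check the genotype labels, since its probe read 7.47 and 7.05 in WT M1 and 7.49 and 7.67 in iNOS-/- M1 and was not detected in either unstimulated group. The groups are therefore called by their labels throughout.

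Stretches upstream of the RefSeq start were available for 8 of the 10 genes, in 15 windows of 250 bases on GRCm38.p6, with no entry for Eps8 or Zfp704. The windows below are shown because they hold matches to motifs of AP-1, which LPS engages, or of PU.1, a factor that defines macrophages. Capitals mark matches to TGANTCA (AP-1) or GAGGAAGT (PU.1), searched on both strands, and each sequence runs 5′ to 3′ on the strand of the gene up to the base before its start.
Sdcbp2, chr2:151572373-151572622, plus strand: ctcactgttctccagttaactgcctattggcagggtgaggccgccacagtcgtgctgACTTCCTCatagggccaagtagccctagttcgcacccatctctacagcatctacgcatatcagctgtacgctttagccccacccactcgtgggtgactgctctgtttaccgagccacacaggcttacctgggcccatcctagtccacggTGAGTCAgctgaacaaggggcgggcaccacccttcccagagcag
Tmem154, chr3:84665942-84666191, plus strand: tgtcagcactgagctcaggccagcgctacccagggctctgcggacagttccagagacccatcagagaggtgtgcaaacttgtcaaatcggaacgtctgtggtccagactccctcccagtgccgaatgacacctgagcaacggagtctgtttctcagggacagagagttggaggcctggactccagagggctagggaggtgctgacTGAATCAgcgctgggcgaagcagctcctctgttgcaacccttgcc
Epb4.1l1, chr2:156475284-156475533, plus strand: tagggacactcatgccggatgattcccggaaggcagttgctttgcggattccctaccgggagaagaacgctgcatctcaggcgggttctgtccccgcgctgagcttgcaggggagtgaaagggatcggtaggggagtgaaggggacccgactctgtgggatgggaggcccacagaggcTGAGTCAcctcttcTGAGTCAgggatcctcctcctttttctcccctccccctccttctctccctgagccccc

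The AP-1 letters began 44 bases before the start of Sdcbp2, 45 before that of Tmem154, and 72 and 58 before 1 of 3 listed starts of Epb4.1l1. They occurred in 3 of the 15 windows and in 6.75% of all 32851 windows of this length. The only PU.1 match lay 193 bases before the start of Sdcbp2, and 2.44% of all windows held one. No window of these genes held the interferon-stimulated response element searched as TTTC, any 2 bases, TTTC (2.98% of all windows) or the NF-kB motif searched as GGG, any 2 bases, TTTCC (1.41%). AP-1 letters thus stood upstream of Sdcbp2, which was highest in iNOS-/- M1 cells, and of Tmem154 and Epb4.1l1, which were lowest there. A match of letters is not a binding site.

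**Figure D1:**
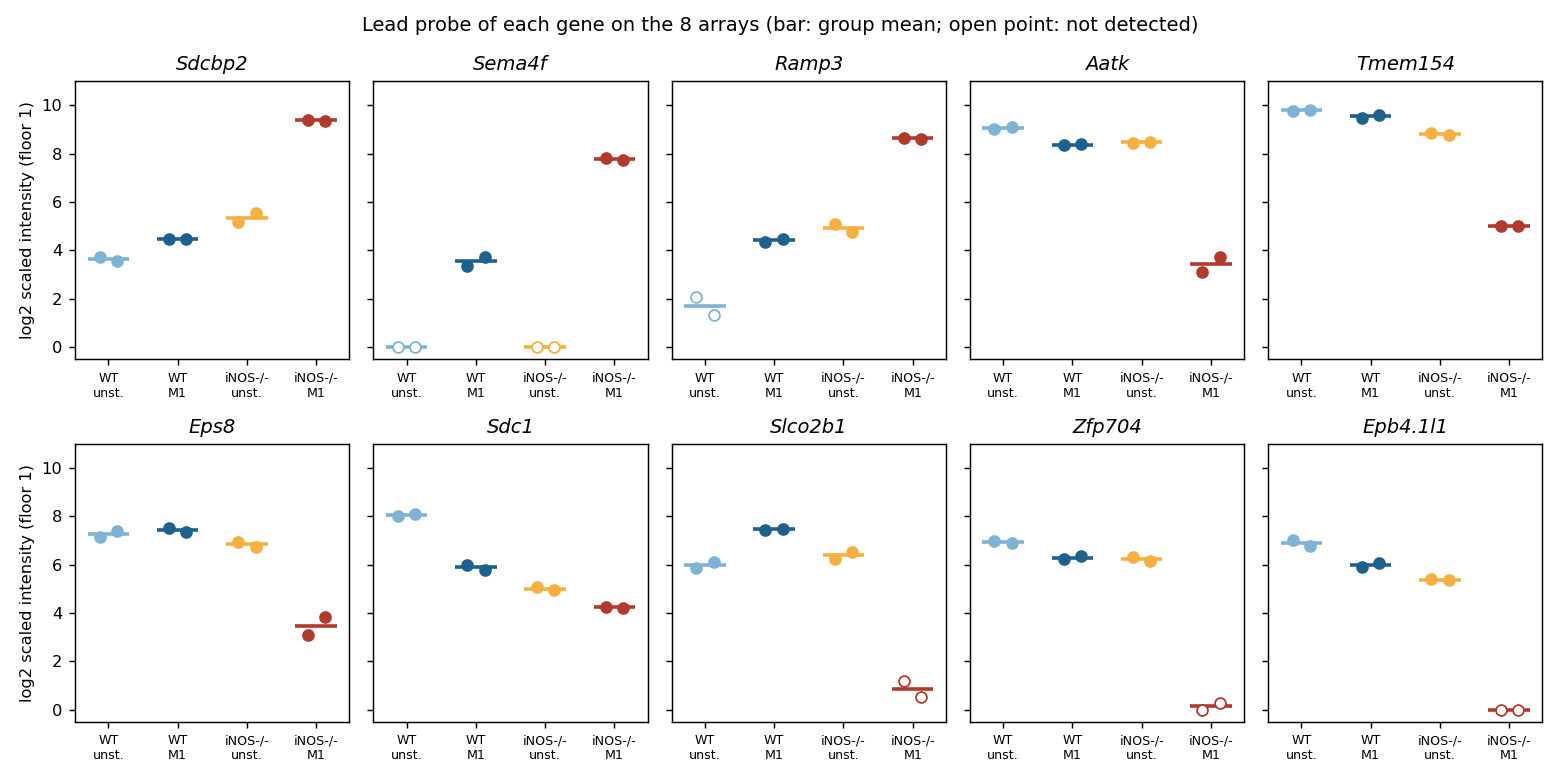
Log2 scaled intensity (vertical axis, floor at 0) of the lead probe of each gene on the 8 arrays, by group. Points are arrays, open where the probe was not detected, and bars are group means of 2 arrays. The red iNOS-/- M1 points are the highest of the 4 groups for Sdcbp2, Sema4f and Ramp3 and the lowest for the other 7 genes.

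Sdcbp2, the syntenin-2 gene, was low in WT cells and climbed through the other groups. Its lead probe, the brightest of 3, read 3.72 and 3.57 in WT unstimulated cells, 4.45 and 4.48 in WT M1 cells, 5.17 and 5.53 in iNOS-/- unstimulated cells, and 9.39 and 9.35 in iNOS-/- M1 cells. No groups overlapped, and the iNOS-/- M1 arrays stood far above the rest. The M1 genotypes differed by 4.91 ± 0.14 (log2, SE, n = 2 arrays a group), which is 30.0-fold, and the unstimulated genotypes by 1.70 ± 0.14. On stimulation Sdcbp2 rose in WT cells by 0.82 ± 0.14 (adjusted p = 0.01) and in cells labelled iNOS-/- by 4.03 ± 0.14 (adjusted p = 4.24e-05). The WT call was lost when the arrays were normalized with neqc (0.25, adjusted p = 0.0769), when WT unstimulated replicate 2 was left out (0.73, adjusted p = 0.0578) and when WT M1 replicate 2 was left out (0.81, adjusted p = 0.0513).

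The semaphorin gene Sema4f was seen in activated cells alone. Its single probe was at the floor of 0 on all 4 unstimulated arrays, read 3.37 and 3.72 in WT M1 cells, and reached 7.80 and 7.73 in iNOS-/- M1 cells. The M1 groups lay 4.22 ± 0.13 apart, or 18.7-fold, while the unstimulated groups were not detected and have no fold. Sema4f rose on stimulation by at least 2.07-fold in WT cells (adjusted p = 7.5e-05) and by at least 43.6-fold in cells labelled iNOS-/- (adjusted p = 1.5e-05). These bounds set the undetected arrays at the lowest signal of a detected probe. Here and below they hold for the main scaling only, and other treatments of low signal gave smaller differences. Values at the floor have no spread, which makes the SE of Sema4f, and that of Epb4.1l1 below, too small. This holds in part for Zfp704 too, whose iNOS-/- M1 arrays read 0 and 0.26. An adjusted p printed beside a bound tests the measured difference with the floor, not the bound. With the floor raised to 16 the WT M1 arrays of Sema4f fell under it, so that its WT change became 0.00 (adjusted p = 1).

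Ramp3, the receptor accessory subunit, followed Sdcbp2 in the order of its groups. It was not detected in WT unstimulated cells, where the lead probe of 3 read 2.05 and 1.32. The level was 4.35 and 4.48 in WT M1 cells, 5.09 and 4.74 in iNOS-/- unstimulated cells, and 8.65 and 8.61 in iNOS-/- M1 cells. All 4 groups were apart, and unstimulated cells labelled iNOS-/- already stood above activated WT cells. The M1 difference was 4.21 ± 0.26, or 18.5-fold, and the unstimulated difference at least 5.35-fold. Ramp3 rose by at least 3.80-fold in WT cells (adjusted p = 0.00153) and by 3.71 ± 0.26 in cells labelled iNOS-/- (adjusted p = 0.000266), and the WT rise was 0.42 (adjusted p = 0.0664) with the floor at 16.

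Aatk, the kinase gene, was bright in 3 groups and dim in the fourth. It read 9.03 and 9.10 in WT unstimulated cells, 8.34 and 8.38 in WT M1 cells and 8.45 and 8.50 in iNOS-/- unstimulated cells, against 3.12 and 3.74 in iNOS-/- M1 cells. The iNOS-/- M1 arrays were thus lower by 4.94 ± 0.21 than WT M1 (30.6-fold), where the unstimulated genotypes were only 0.59 ± 0.21 apart. Aatk fell by 5.05 ± 0.21 (log2, SE) on stimulation in cells labelled iNOS-/- (adjusted p = 5.71e-05). The WT change of -0.70 ± 0.21 passed narrowly (adjusted p = 0.0498) and lost its call in 9 of 15 other settings, with adjusted p up to 0.158.

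Tmem154 was high in both WT groups, somewhat lower in iNOS-/- unstimulated cells and far lower in iNOS-/- M1 cells. The level was 9.77 and 9.81 in WT unstimulated cells and 9.49 and 9.60 in WT M1 cells. In cells labelled iNOS-/- it was 8.86 and 8.76 before activation and 5.0 and 5.01 after it. Replicate arrays lay within 0.106 of each other in every group, and no groups overlapped. Between the genotypes the M1 difference was -4.54 ± 0.09, a 23.2-fold lower level, and the unstimulated difference -0.98 ± 0.09. Tmem154 fell by 3.81 ± 0.09 on stimulation of cells labelled iNOS-/- (adjusted p = 1.55e-05), while the WT change of -0.25 ± 0.09 did not pass (adjusted p = 0.0795). With the floor at 16 or without the detection filter the WT change did pass (adjusted p = 0.0225 and 0.0453).

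Eps8, the actin regulator, did not differ beyond its spread between WT states. It read 7.16 and 7.40 in WT unstimulated cells, 7.51 and 7.36 in WT M1 cells, 6.93 and 6.74 in iNOS-/- unstimulated cells, and 3.10 and 3.85 in iNOS-/- M1 cells. The last pair was 0.752 apart, the widest replicate gap of any gene here, yet both arrays lay far below the others. Eps8 was 3.96 ± 0.26 (15.6-fold) lower in iNOS-/- M1 than in WT M1 cells, and 0.44 ± 0.26 lower before stimulation. It fell by 3.36 ± 0.26 on stimulation in cells labelled iNOS-/- (adjusted p = 0.000376), and its WT change was 0.16 ± 0.26 (adjusted p = 0.679).

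Sdc1 stood apart from the others because its larger genotype gap came before activation. Its lead probe, the brightest of 3, read 8.01 and 8.08 in WT unstimulated cells, 6.00 and 5.78 in WT M1 cells, 5.06 and 4.94 in iNOS-/- unstimulated cells, and 4.26 and 4.22 in iNOS-/- M1 cells. The syndecan-1 signal therefore stepped down through groups that did not overlap. Unstimulated genotypes differed by -3.04 ± 0.11 (8.24-fold) and M1 genotypes by -1.65 ± 0.11 (3.14-fold). By size the M1 difference ranked 2113 of the 13868 probes tested, and the other 6 genes detected in both M1 groups lay between ranks 35 and 119. Sdc1 fell by 2.15 ± 0.11 on stimulation in WT cells (adjusted p = 0.000197) and fell by 0.76 ± 0.11 in cells labelled iNOS-/- (adjusted p = 0.00313).

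Slco2b1, the organic anion carrier, moved in opposite directions on stimulation in the labelled genotypes. Its probe read 5.87 and 6.09 in WT unstimulated cells and 7.45 on both WT M1 arrays. Cells labelled iNOS-/- gave 6.24 and 6.52 before activation, and after it the probe was not detected, at 1.20 and 0.53. WT M1 cells were the highest of the 4 groups and iNOS-/- M1 cells the lowest, with no overlap between any of them. The lower level in iNOS-/- M1 than in WT M1 cells was at least 23.5-fold, a bound that replaces the measured log2 difference of -6.59, whose size rests on the floor. Slco2b1 rose by 1.47 ± 0.25 in WT cells (adjusted p = 0.00888) and fell by at least 11.2-fold in cells labelled iNOS-/- (adjusted p = 6.99e-05). Without WT unstimulated replicate 1 the WT rise was 1.34 (adjusted p = 0.0527). Before stimulation the genotypes differed by 0.40 ± 0.25.

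Zfp704, the zinc finger gene, was lost from detection in iNOS-/- M1 cells as well. Its lead probe gave 6.97 and 6.90 in WT unstimulated cells, 6.22 and 6.35 in WT M1 cells, 6.32 and 6.13 in iNOS-/- unstimulated cells, and 0 and 0.26 in iNOS-/- M1 cells. WT M1 and iNOS-/- unstimulated arrays overlapped, and the last group lay at or near the floor. Between the M1 groups the level was at least 10.5-fold lower in cells labelled iNOS-/- (measured log2 difference -6.16), and the unstimulated difference was -0.71 ± 0.13. Zfp704 fell on stimulation by at least 10.0-fold in cells labelled iNOS-/- (adjusted p = 1.5e-05). In WT cells it fell by 0.65 ± 0.13 (adjusted p = 0.0165), and that call was lost when either array of either WT group was left out (adjusted p from 0.0535 to 0.0887).

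Epb4.1l1, the membrane-cytoskeleton linker, showed the same end point. The lead probe read 7.02 and 6.76 in WT unstimulated cells, 5.91 and 6.07 in WT M1 cells, 5.39 and 5.36 in iNOS-/- unstimulated cells, and 0 on both iNOS-/- M1 arrays. It was undetected in the last group, and the other 3 groups did not overlap. Cells labelled iNOS-/- were at least 8.50-fold lower than WT after activation, with a measured log2 difference of -5.99, and lower by 1.52 ± 0.12 before it. Epb4.1l1 fell by 0.90 ± 0.12 in WT cells (adjusted p = 0.00406) and by at least 5.56-fold in cells labelled iNOS-/- (adjusted p = 1.5e-05).

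**Figure D2:**
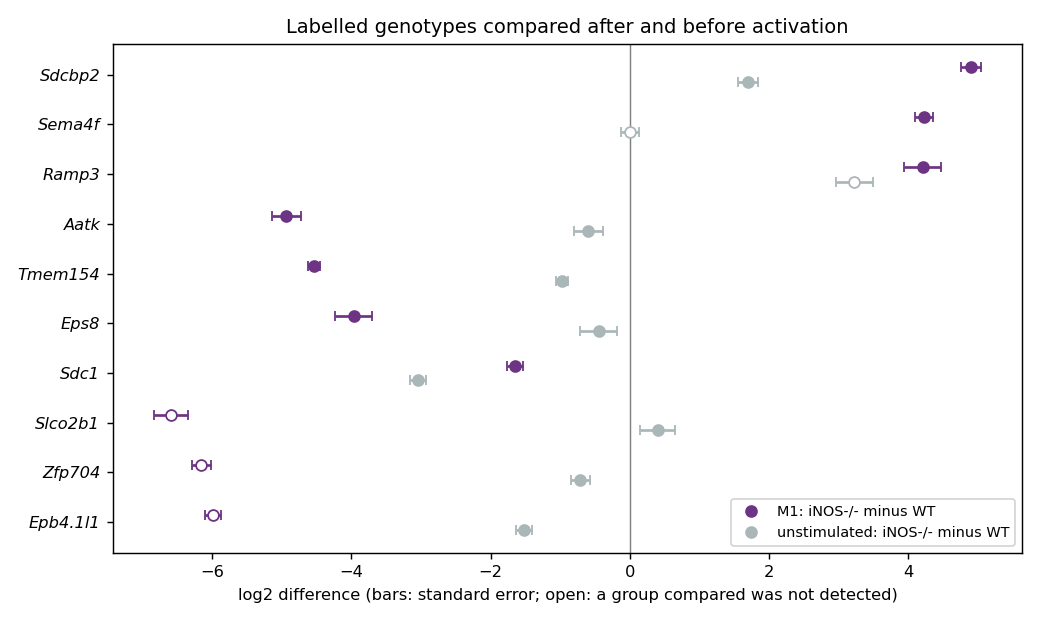
Log2 difference between labelled genotypes (horizontal axis, iNOS-/- minus WT) for each gene, after activation in purple and before it in grey, with the standard error as bars and open points where a compared group was not detected. Sdc1 is the gene whose unstimulated difference (-3.04) exceeds its M1 difference (-1.65), and Slco2b1 has differences of opposite sign (0.40, and -6.59 against undetected arrays).

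Set side by side, the M1 groups did not overlap for any of the 10 genes, but neither did they for 74.8% of all tested probes. In unstimulated cells the groups were apart for 9 genes, 3 higher and 6 lower in cells labelled iNOS-/-, where 69.8% of all tested probes were apart and Sema4f was the exception. The median size of the log2 difference was 4.722 after activation, against 0.654 over all tested probes, and 0.843 before it, against 0.453. With genes undetected in a compared group set at their bound, the medians were 4.216 and 0.843. Since these contrasts chose the genes, nothing follows from those counts. The order of the 4 group levels was free of overlap in 7 genes, with Sema4f, Eps8 and Zfp704 as the exceptions named above. Of the 10 genes 5 were detected on every array, and the other 5 (Sema4f, Ramp3, Slco2b1, Zfp704 and Epb4.1l1) were undetected in at least 1 group, so not all were bright throughout.

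On stimulation of WT cells, 4 of the 10 genes rose (Sdcbp2, Sema4f, Ramp3 and Slco2b1), 4 fell (Aatk, Sdc1, Zfp704 and Epb4.1l1) and 2 did not pass, where 20.8% of all tested probes were called higher and 14.3% lower. In cells labelled iNOS-/-, 3 rose and 7 fell, where 25.2% of all tested probes were called higher and 25.1% lower. The median size of the change was 0.863 in WT cells, against 0.494 over all tested probes, and 4.536 in cells labelled iNOS-/-, against 0.703. With undetected groups at their bound these medians were 0.863 and 3.598. These tests use the same arrays as the contrasts that chose the genes, so their counts, sizes and p-values in part restate that choice. A difference in response between the genotypes was not tested. The number called in WT cells was 4 when a 2-fold minimum was required, 5 without WT unstimulated replicate 1, 5 without WT unstimulated replicate 2 and 5 without WT M1 replicate 2. In cells labelled iNOS-/- it was 9 or 10 in every setting tried.

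**Figure D3:**
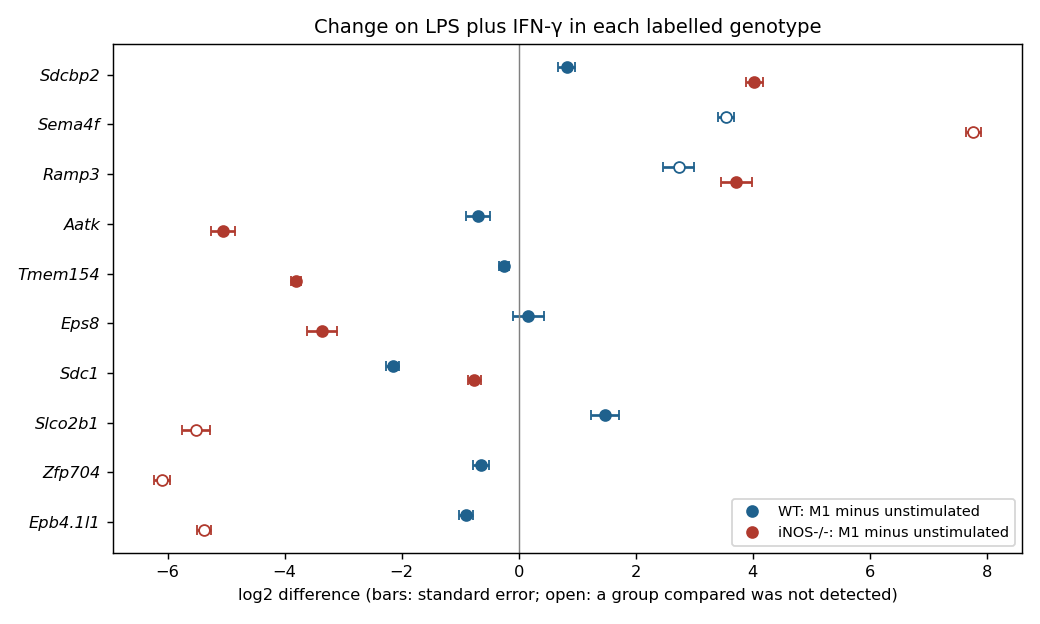
Log2 change on LPS plus IFN-γ (horizontal axis, M1 minus unstimulated) for each gene, in WT cells in blue and in cells labelled iNOS-/- in red, with the standard error as bars and open points where a compared group was not detected. The red points lie farther from 0 than the blue points for 9 genes, and for Sdc1 the order is turned (-2.15 in WT and -0.76 in iNOS-/-). The genes were chosen on genotype differences of these arrays, so this order in part restates that choice.

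The size of several differences depended on how low signals were treated. With neqc, which models the background, the M1 difference became -3.24 for Slco2b1, -2.24 for Zfp704, -2.05 for Epb4.1l1 and -1.0 for Sdc1, and the unstimulated difference became 0.91 for Sdcbp2 and 1.13 for Ramp3. With the floor at 16 the M1 difference was -3.45 for Slco2b1, -2.29 for Zfp704 and -1.99 for Epb4.1l1. Both settings gave less than the bounds of these genes, which were 4.55, 3.39 and 3.09 in log2. The neqc rises of Sema4f (0.56 in WT cells and 3.64 in cells labelled iNOS-/-) and of Ramp3 in WT cells (0.75) also lay under their bounds. Folds given as at least a value therefore hold for the main scaling and floor only. None of the 10 genes changed direction under either setting.

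More than 1 probe was available for 5 genes, and every detected probe of Sdcbp2, Ramp3 and Epb4.1l1 pointed the same way between the M1 groups. The second Sdcbp2 probe, starting at base 855 of the transcript, read 7.13 and 6.99 in iNOS-/- M1 cells and at most 3.24 elsewhere. The remaining probe, starting at base 250, was detected on the iNOS-/- M1 arrays alone, at 5.19 and 5.0. The second Ramp3 probe (base 424) gave an M1 difference of 4.31 ± 0.56. For Epb4.1l1 the second probe (base 5918) read 5.32 and 5.27 in WT M1 cells against 0.13 and 0 in iNOS-/- M1 cells, and the probe at base 2469 was not detected on any array. Each Epb4.1l1 probe is annotated to a different transcript record, the lead probe to a predicted one, so their bases are not positions on a shared transcript.

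Probes disagreed in part for Sdc1 and Zfp704. The second Sdc1 probe (base 938) read 6.93 and 6.75, 5.93 and 5.66, 3.50 and 3.77, and 3.76 and 3.72 in 4 groups ordered as WT cells before and after activation and then cells labelled iNOS-/- before and after it. It gave genotype differences of -3.21 before and -2.06 after activation and a WT fall of 1.04 (adjusted p = 0.00542), but its change in cells labelled iNOS-/- was 0.11 ± 0.15 (adjusted p = 0.589), where the lead probe fell. The dimmest Sdc1 probe (base 2835) ranged from 0 to 3.57 and its groups overlapped in all 4 comparisons. The second Zfp704 probe (base 1800) read 4.25 and 3.90 in WT unstimulated and 4.23 and 4.49 in WT M1 cells. Its WT change of 0.29 ± 0.27 did not pass (adjusted p = 0.458), in contrast to the lead probe, while both probes were undetected in iNOS-/- M1 cells.

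**Figure D4:**
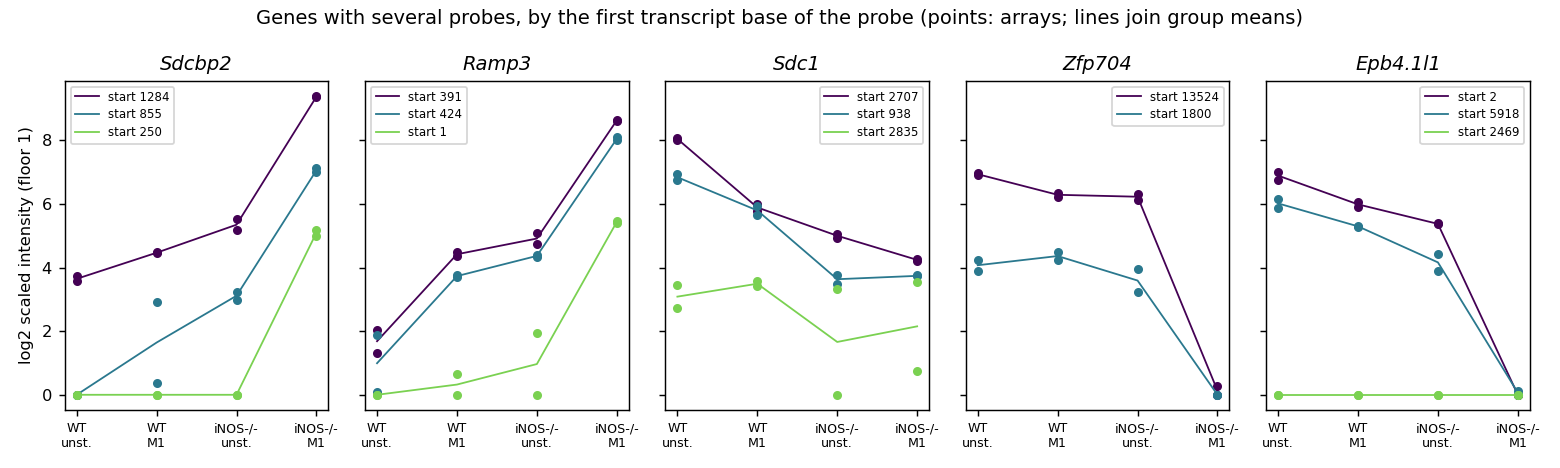
Log2 scaled intensity (vertical axis, floor at 0) of every probe of the 5 genes with more than 1 probe, by group. Points are arrays, lines join group means, and the legend gives the first transcript base of each probe. The Sdc1 probe starting at base 938 is flat between the groups labelled iNOS-/- (3.50 and 3.77 against 3.76 and 3.72), where the lead probe steps down.

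The genes whose pattern over the 8 arrays was closest to each of these were found by the root mean square difference of centred log2 levels among 9023 candidates. Klf4, a transcription factor of macrophages, and Myo7a came closest to Eps8, at 0.159 and 0.168. Rnase4 and Ang, which encode secreted ribonucleases, came closest to Sdc1, at 0.195 and 0.229. Dhcr7, an enzyme of cholesterol synthesis, was 0.223 from Tmem154, with group means of 7.05, 6.55, 5.82 and 2.18 in the order used above. Cd300lb, an activating myeloid receptor, was the nearest to Epb4.1l1 (0.236) and the second nearest to Zfp704 (0.441), and within the set Zfp704 and Epb4.1l1 were closest to each other at 0.327. Trim47 lay 0.252 from Aatk. The nearest genes to Zfp704 (Efcab4a, 0.349), Sdcbp2 (Serpinb1a, 0.388), Sema4f (Wdr20b, 0.393), Ramp3 (Pla2g4f, 0.423) and Slco2b1 (C130050O18Rik, 0.523) lay farther off. The measure is not scaled to the range of a gene, so these distances do not rank likeness between genes of unlike range. Likeness is a description of 8 arrays that share 4 groups.

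Relatives of the 10 genes, listed by family or binding partner, moved in both directions between genotypes. Of 70 listed genes 44 were tested. In M1 cells 12 were called higher and 10 lower in cells labelled iNOS-/-, where 22.9% of all tested probes were called higher and 25.3% lower. In unstimulated cells 12 were higher and 11 lower, where the shares over all probes were 16.7% and 15.4%. The median difference of the relatives was 0.115 in M1 cells and -0.009 in unstimulated cells.

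Among 9 syndecan and heparan sulphate genes 3 were higher and 4 lower in iNOS-/- M1 than in WT M1 cells. Ndst1, an enzyme that sulphates heparan chains, was lower by 1.30 (adjusted p = 0.00573), and Hpse, the heparanase that cuts them, was lower by 0.85 (adjusted p = 0.00296). Ext2, which extends the chains, and Hs6st1, which sulphates them, were lower by 1.05 and 0.95 (adjusted p = 0.00448 and 0.00335). In the other direction, Ext1 was higher by 0.73 (adjusted p = 0.00433). Gpc1 was higher by 0.57 (adjusted p = 0.00529), a call lost under quantile and neqc normalization. Syndecan-4 did not follow syndecan-1. Sdc4 rose on stimulation from 4.95 to 9.10 in WT cells and from 5.86 to 9.69 in cells labelled iNOS-/- (adjusted p = 7.5e-05 and 5.6e-05), and it was higher by 0.59 in iNOS-/- M1 than in WT M1 cells (adjusted p = 0.0268), a call lost under quantile normalization. Sdcbp, the syntenin-1 gene, differed by 0.16 (adjusted p = 0.313), unlike its relative Sdcbp2.

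The other families were mixed too. Of 8 class 4 semaphorins, plexins and neuropilins, Sema4a was higher by 0.55 (adjusted p = 0.00931), but -0.02 under quantile and neqc normalization, and Sema4d was lower by 1.41 (adjusted p = 0.00441). Among 6 RAMP and calcitonin family genes Ramp1 was lower by 1.28 (adjusted p = 0.000651), opposite to Ramp3, and Calcb was called higher although it was detected on no WT M1 array and on 1 iNOS-/- M1 array. Calcrl, the receptor that Ramp3 partners, was detected on both iNOS-/- M1 arrays and on 1 WT M1 array, and its difference of 1.69 did not pass (adjusted p = 0.276). Of 3 genes related to Aatk, Cdk5r1, the activator of CDK5, was higher by 2.18 (adjusted p = 0.00119) and Cdk5 itself lower by 1.66 (adjusted p = 0.000587).

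Of 8 EPS8 relatives and partners, Rab5a (0.87, adjusted p = 0.000988) and Abi1 (0.74, adjusted p = 0.00362) were higher and Rac1 was lower by 0.81 (adjusted p = 0.00169). Among 4 organic anion transporters tested, Slco3a1 ran opposite to Slco2b1. Its group means were 4.70, 8.09, 7.14 and 10.42 in the order used above, 2.33 higher in iNOS-/- M1 than in WT M1 cells (adjusted p = 0.000168), while Slco4a1 was lower by 1.57 (adjusted p = 0.000562). Within the band 4.1 group of 6, 3 genes were higher, and 1 was lower. Epb4.1l2 was higher by 1.14 (adjusted p = 0.0149) and Mpp1 by 0.47 (adjusted p = 0.0139), the latter not called under quantile or neqc normalization, and Epb4.1l4a was called higher although it was detected on no WT M1 array. Epb4.1l3 was lower by 1.96 (adjusted p = 0.000225) with means of 5.31, 8.00, 8.42 and 6.04, so that it rose on stimulation in WT cells and fell in cells labelled iNOS-/- (adjusted p = 8.11e-05 and 6.3e-05). No listed relative of Zfp704 was tested.

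**Figure D5:**
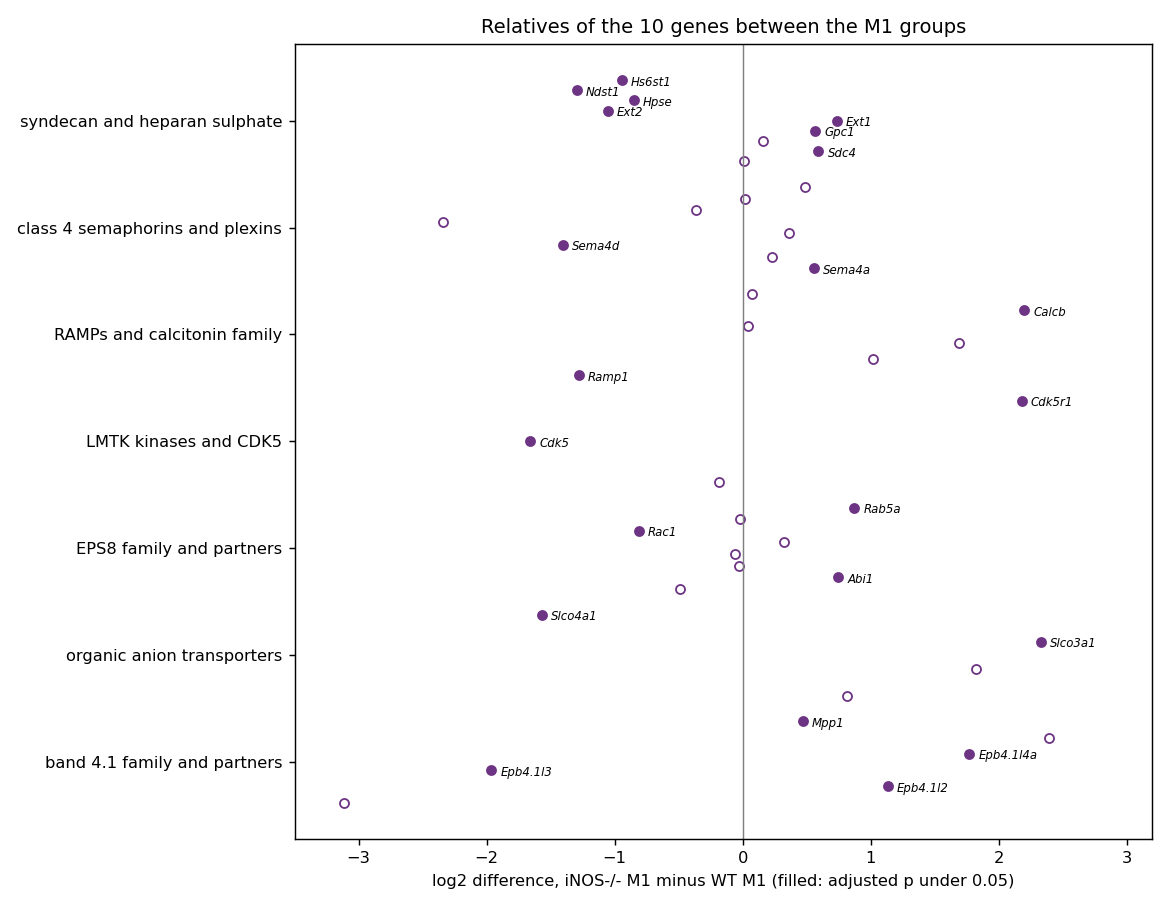
Log2 difference between the M1 groups (horizontal axis, iNOS-/- minus WT) for the 44 tested relatives, by list, each point a gene and filled points those called at an adjusted p under 0.05. Called genes lie on both sides of 0 in all 7 lists, with Slco3a1 (2.33) farthest to the right of them and Epb4.1l3 (-1.96) farthest to the left.

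Markers of other cells also differed between the groups, in orders that varied by list, and their part in these results was not tested. Bulk arrays cannot tell fewer cells of a type from less RNA per cell. Of 8 dendritic cell genes 5 were higher and 0 lower in iNOS-/- M1 than in WT M1 cells, and their summed intensity was 957.1 to 973.7 in WT unstimulated, 17240 to 17860 in WT M1, 14140 to 15020 in iNOS-/- unstimulated and 38450 to 40170 in iNOS-/- M1 cells, with Flt3 undetected throughout. The lowest and the highest group were those of Sdcbp2 and Ramp3, but the middle groups stood in the other order. The granulocyte sums and Cpa3, given below, had all groups in the order of Sdcbp2 and Ramp3. That likeness was therefore not particular to dendritic cell genes. Ccl17 and Il4i1 were the brightest genes of the dendritic cell sum in iNOS-/- M1 cells, with means of 14.24 and 13.75. Itgax had group means of 7.58, 7.98, 7.98 and 7.54, and its M1 difference of -0.44 did not pass (adjusted p = 0.0657). Zbtb46 and Ccl22, higher by 0.70 and 2.21 in iNOS-/- M1 cells, did not pass either. Granulocyte genes gave 3 higher and 0 lower of 7, with sums of 1130 to 1166, 1413 to 1524, 1695 to 1748 and 3873 to 4011, and Mpo was undetected. S100a8 was the brightest of them in iNOS-/- M1 cells (11.50), and Mmp8, Mmp9, Camp and Ngp were not called between the M1 groups. Of 8 genes of dividing cells, 7 were lower in iNOS-/- M1 than in WT M1 cells, with sums of 677.2 to 760, 2096 to 2229, 2488 to 2510 and 828 to 832.9. Of 7 macrophage genes 3 were higher and 4 lower, with sums of 13590 to 14080, 11340 to 11500, 8896 to 9030 and 14590 to 15020. Cpa3, the mast cell protease tested here, was undetected in WT unstimulated cells and had intensities of 20.19 to 26.81 in WT M1, 84.78 to 96.48 in iNOS-/- unstimulated and 113.6 to 121.4 in iNOS-/- M1 cells. The epithelial Cdh1 had 6.514 to 9.859, 83.04 to 87.81, 210.8 to 213.1 and 50.93 to 66.85 in the same order, and was higher in iNOS-/- than in WT unstimulated cells by 4.73 (adjusted p = 0.000208). The other epithelial markers on the array, Krt8 and Krt18, were undetected on every array. So were the fibroblast markers Col1a1, Col3a1, Dcn, Lum and Pdgfra and the mast cell and basophil markers Mcpt8, Cma1 and Ms4a2.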

How the data were processed

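Total RNA of 8 samples was hybridized to Illumina mouse beadchips, named MouseRef-8 v2.0 in the series text. The authors exported the deposited intensity of each probe with a detection p-value, and both were used here. The labels name GenomeStudio and limma 3.14.4. No scaling between arrays is visible in the values. Of them 25.22 to 27.19% per array were below 0, and the paper's methods name background subtraction, so a background may already have been removed. All settings here, neqc included, started from these values. Here, intensities were scaled by rank-invariant probes (mean-array ranks 0.5 to 0.9, rank tolerance 0.05, robust regression without intercept by MASS 7.3.60.0.1), with factors from 0.813 to 1.302. Values below 1 were set to 1 and logged to base 2. Probes detected (p-value under 0.05) on 2 or more arrays, 13868 probes of 10163 symbols, were fitted with limma 3.58.1 in R 4.3.3 as 4 groups, with Benjamini-Hochberg adjustment over all of them and calls at an adjusted p under 0.05. A gene is represented by its brightest tested probe, and 18 of the 19 probes of the 10 genes were tested. A probe undetected in a group has only a bound there, taken from the lowest signal among detected probes with the main scaling. All 10 genes and their other probes are described. Relatives were named from the 4 largest called differences of each list, besides Ext1, Gpc1, Sdc4, Sdcbp and Calcrl, which were named after their values were seen. For each gene the 2 nearest patterns were sought. The genes, lists and tests were chosen with earlier results of these data known. The procedure was tested on simulated data for the contrast of the M1 groups. It recovered 178 of 200 changed probes, and 5.8% of its calls were false. Promoter sequences are from RefSeq (GRCm38.p6). A motif and a marker gene are not reported here. The alternatives were quantile and neqc normalization, a floor of 16, other detection filters, a 2-fold minimum, fits of 4 arrays, a replicate block and leaving out each array. The number of arrays limits the precision.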

Additional observations from a re-analysis of the deposited data

Results flagged for a closer look

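Slco2b1 was the gene whose arrays all moved one way on stimulation in WT cells and the opposite way in cells labelled iNOS-/-. Its log2 change was 1.4714 in WT cells and -5.515 in cells labelled iNOS-/-, and every M1 array lay above both unstimulated arrays in the former and below both in the latter. The iNOS-/- M1 arrays were not detected, so the fall is a bound of at least 11.2-fold with the main scaling. The difference between the genotypes was not tested.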

How the results depend on the processing

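No direction of the 10 genes was turned in any of the 15 alternative settings. Of 298 recomputed stimulation tests 277 kept their side of the threshold, 19 lost the call and 2 gained it, with 9 of the losses in Aatk. The genes called on stimulation of WT cells numbered 8, against 4 with a 2-fold minimum and 5 to 8 when single arrays were left out; in cells labelled iNOS-/- they numbered 10, also without any single array. Relatives called numbered 22 between M1 groups (12 with a 2-fold minimum, 21 to 23 without single arrays) and 23 between unstimulated groups (10 with a 2-fold minimum, 17 to 23 without single arrays). Of all probes called on WT stimulation 59.3% were higher, against 47.4% under quantile and 44.4% under neqc normalization, with a median change over all probes of 0.089, -0.062 and -0.035; in cells labelled iNOS-/- these medians were 0.004, -0.13 and -0.062. Sema4f was not tested under the stricter detection filter.

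With a replicate block, the genes called were 7 in WT cells, Aatk being lost (adjusted p = 0.0533), and 10 in cells labelled iNOS-/-, and the relatives called were 22 and 21. Deviations of arrays with the same replicate number correlated at -0.038 to 0.025, so no deviation shared by number was seen. These values cannot tell whether arrays of the same number came from the same mice or cultures. Signals near the background limit every fold in a group where a probe was undetected.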
